A study of Mus musculus with 6 samples.

Results

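The keratin genes of simple epithelia, Krt7, Krt8, Krt18, Krt19 and Krt20, were chosen by gene symbol, 5 of the 55367 genes counted in acinar cells of the mouse pancreas, which secrete its digestive enzymes. RNA-seq was available for 6 libraries, all of 1 group, by their titles and protocol, although the molecule is labelled genomic DNA. The mice were untreated and carried Pdx1-Cre; Klf5-mCherry-CreERT2, which combines a Cre driven by the promoter of the pancreatic factor Pdx1 with a tagged CreERT2 allele of Klf5. Each library was a pool of 300 cells sorted for GFP, a reporter that the genotype does not mention, and age and sex are not given. Separate animals are not stated either, so that a p-value here measures only how 6 samples spread, which may be technical. Replicates 4 to 6 (set B) and replicates 1 to 3 (set A) carry different numbers in their deposited names, and what the number stands for is not stated. The labels of both sets are otherwise the same, so a difference between them is one of unknown origin.

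Keratins are the intermediate filament proteins of epithelial cells. Every filament is built from pairs of a type I and a type II keratin, so that a cell needs a gene of each type. Krt8 (type II) and Krt18 (type I) are the founding pair of simple epithelia and the main keratins of acinar cells, where their filaments run through the cytoplasm and under the apical membrane. Krt7 (type II) and Krt19 (type I) are best known in the pancreas from the ducts, and Krt19 is a common duct marker. Krt20 (type I) is known mainly from the gut and urothelium. Mice without Krt8 or Krt18 are a known model of how keratins guard liver cells against stress.

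Krt8 lies on chromosome 15 at 101996698 to 102004482 on the minus strand (build mm10), beside Krt18 at 102028180 to 102032027 on the plus strand. Krt7 lies on the same chromosome at 101411043 to 101430313 on the plus strand. Krt19 and Krt20 lie on the minus strand of chromosome 11, at 100140810 to 100148665 and at 99428403 to 99438150. Another counted gene covers 13.8% of the exon bases of Krt8 (Gm36026) and 11.8% of those of Krt7 (Gm671), where reads cannot be told apart without strand, and none covers exon bases of the other 3 keratins. The sequences around the starts of Krt8 and Krt18, the pair with the highest counts, and of Krt7, the keratin that varied most among those with over 100 counts, are shown from RefSeq (GRCm38.p6), from 250 bases before to 30 bases after the RefSeq start, which lies inside the counted span of all 3 genes. They run 5′ to 3′ on the strand of the gene, at chr15:102004313-102004592, chr15:102027966-102028245 and chr15:101412153-101412432, with matches to 4 short motifs on either strand in capitals.
Krt8: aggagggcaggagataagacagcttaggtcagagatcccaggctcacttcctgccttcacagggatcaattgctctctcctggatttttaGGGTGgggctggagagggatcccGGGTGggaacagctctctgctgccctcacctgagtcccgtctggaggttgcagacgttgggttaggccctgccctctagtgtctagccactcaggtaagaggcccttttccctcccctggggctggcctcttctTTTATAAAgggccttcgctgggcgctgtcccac
Krt18: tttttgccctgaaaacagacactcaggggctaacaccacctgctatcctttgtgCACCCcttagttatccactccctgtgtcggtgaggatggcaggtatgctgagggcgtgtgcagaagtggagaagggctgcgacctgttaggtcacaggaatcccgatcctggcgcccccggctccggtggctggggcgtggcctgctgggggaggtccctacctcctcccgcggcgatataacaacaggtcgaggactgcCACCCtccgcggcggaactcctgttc
Krt7: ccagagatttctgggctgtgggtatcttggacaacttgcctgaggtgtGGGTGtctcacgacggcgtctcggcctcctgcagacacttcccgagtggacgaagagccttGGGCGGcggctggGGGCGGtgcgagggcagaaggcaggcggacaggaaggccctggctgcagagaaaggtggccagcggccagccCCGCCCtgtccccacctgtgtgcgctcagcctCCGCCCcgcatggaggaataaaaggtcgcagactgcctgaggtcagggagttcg
RefSeq start regions were matched for 4 of the 5 genes, the fifth being Krt19. Among 32851 regions of the same length, 13.1% held TATAAA (the TATA box), 34.7% GGGCGG (the GC box bound by Sp1-type factors), 55.4% CACCC (a short form of the Klf site, which can also lie inside longer GC-rich motifs) and 7.5% TGANTCA (the AP-1 site). TGANTCA was found in none of the 4. CACCC was found in all 4 regions searched. TATAAA was found across the start of Krt8 and from 29 to 24 bases before that of Krt20, whose region is not printed. GGGCGG was found in the Krt7 region alone of the 4, at 4 places. These matches describe letters and not binding.

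Total counts were 4670819 to 7072270 per library, of which ribosomal RNA genes took 59.9% to 60.9% in set B and 38.1% to 46.8% in set A. The 12 acinar markers took 8.1% to 14.1% of the counts in set B and 26.2% to 32.4% in set A, and all 12 exceeded 3 times background in all 6 libraries, led by the protease genes Ctrb1 at 84803 ± 30660 TPM and Prss2 at 71066 ± 32735 TPM and the colipase gene Clps at 70814 ± 32896 TPM (SD, n = 6). TPM are counts per kb of exon, scaled to the same total in every library. Background was taken from olfactory and vomeronasal receptor genes, which acinar cells are not known to use, and they gave 52.8 to 327 counts per Mb in set B and 26.6 to 39.1 counts per Mb in set A. It was highest in replicate 5. The lists of other cell types stayed far below the acinar markers, with summed levels in set B and set A of 4.64 to 17.7 and 0.583 to 1.70 TPM for 8 mesothelial genes, 44.6 to 2227 and 9.61 to 39.8 for 12 islet genes, 4.73 to 17.4 and 1.97 to 21.3 for 8 fibroblast genes, 1.25 to 14.9 and 1.64 to 4.51 for 8 endothelial genes and 2.74 to 12.9 and 2.71 to 3.41 for 8 immune genes.

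Krt18 and Krt8 were the leading keratins in every library. Krt18 had 54.6, 29.2 and 44.9 TPM in replicates 4, 5 and 6 of set B and 55.9, 49.6 and 47.0 TPM in replicates 1, 2 and 3 of set A. Krt8 had 45.1, 25.7 and 25.6 TPM in set B, in the same order of replicates, and 30.7, 34.3 and 24.3 TPM in set A. Replicate 5 was lowest for Krt18, replicate 4 was highest for Krt8, and the sets overlapped for both genes. Over all libraries Krt18 averaged 46.9 ± 9.65 TPM and Krt8 30.9 ± 7.89 TPM (SD, n = 6). Krt18 ranked 156 to 258 and Krt8 199 to 290 among 21949 protein-coding nuclear genes by TPM within the libraries, so both stood among the abundant transcripts outside the secretory genes. Their 1421 and 1245 counts lay far above background, which could account for 0.158% and 0.365% of them. In these pooled cells, fewer cells with a keratin and less RNA per cell cannot be told apart.

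Krt19, the type I keratin of ducts, was measured in every library but lower. It had 7.32, 2.76 and 2.85 TPM in set B and 4.62, 8.31 and 4.46 TPM in set A, from 11 to 51 counts per library, with a mean of 5.05 ± 2.30 TPM (SD, n = 6). Replicates 2 and 4 were the highest and replicates 5 and 6 the lowest. Its counts exceeded 3 times background in all 6 libraries, although in replicate 5 background could account for 23.3% of the 11 counts.

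Krt7, the type II keratin of ducts, was the least even of the keratins with over 100 counts. It had 42, 43 and 6 counts in replicates 4, 5 and 6 of set B and 10, 11 and 19 counts in replicates 1, 2 and 3 of set A. Replicates 4 and 5 stood above all others and replicate 6 was lowest, so that set B held both ends of the range. On the CPM scale, which divides by the library's total count alone, these were 6.17, 9.21 and 0.848 in set B and 1.42, 1.98 and 2.98 in set A. The level per length depends on which Krt7 transcript is taken, because its exons joined together span 7049 bases, its principal transcript 4094 and its coding part 1371, whereas the coding parts of the other 4 keratins span 1209 to 1470 bases. Krt7 averaged 1.06 ± 1.03 TPM by joined exons, a level near that of Krt20 (SD, n = 6). By principal transcripts it averaged 1.64 ± 1.61 TPM, well below Krt19 at 5.3 ± 2.39 TPM. By coding lengths it averaged 3.87 ± 3.91 TPM, nearer to Krt19 at 5.33 ± 2.36 TPM. Reads were counted over whole genes, so dividing by the coding part alone raises Krt7, whose transcript is largely noncoding, more than the other keratins. Background could account for 8.59% of the 131 Krt7 counts, and in replicate 6 for 35.7% of 6 counts.

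Krt20, the type I keratin of gut epithelium, was close to the limit of detection. It had 5, 4 and 19 counts in replicates 4, 5 and 6 of set B and 5, 1 and 3 counts in replicates 1, 2 and 3 of set A, or 0.766, 0.967 and 2.89 TPM and 0.585, 0.157 and 0.415 TPM. Only replicate 6 had over 5 counts. The 95% exact Poisson interval of its 19 counts was 11.4 to 29.7 and that of the 5 counts of replicate 4 was 1.62 to 11.7, which just overlap. In replicate 5 background could account for 79.6% of the counts. Such intervals cover counting error only, since reads without molecular identifiers are not independent molecules.

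**Figure D1:**
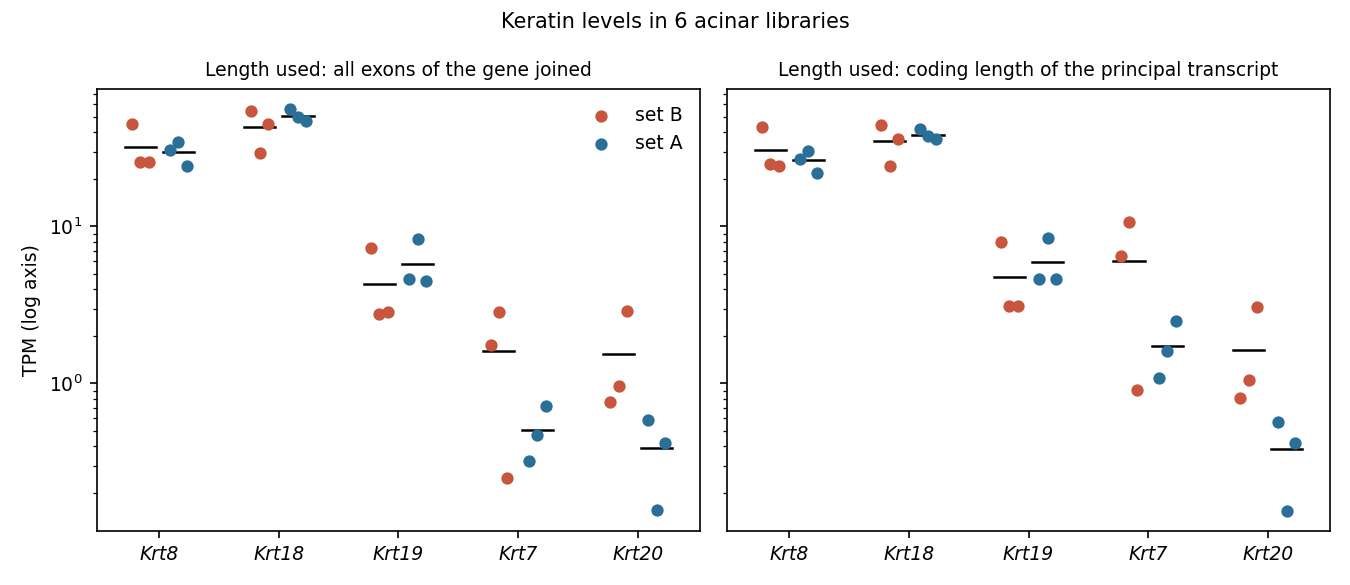
TPM of the 5 keratins on a log axis in 6 acinar libraries, with set B left of set A, points for libraries and bars for set means, by 2 lengths. Krt8 and Krt18 lie between 24.3 and 55.9 TPM by joined exons, while Krt7 lies between 0.25 and 2.84 TPM on the left and between 0.915 and 10.7 TPM on the right.

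The order of the mean levels by joined exons was thus Krt18, Krt8, Krt19, Krt7 and Krt20, with Krt7 (1.06 ± 1.03 TPM) and Krt20 (0.964 ± 0.986 TPM) well within their spread of each other. To ask how far the acinar pair stood above the duct pair, the genes were compared within each library as differences of log2(TPM + 1), a scale that understates the distance to genes with low values. Krt8 exceeded Krt7 by 4.05 ± 0.68 log2 units and Krt19 by 2.45 ± 0.35 (SD, n = 6). Krt18 exceeded Krt7 by 4.64 ± 0.90 and Krt19 by 3.04 ± 0.41. Each of these 4 differences was positive in 6 of 6 libraries and passed the exact two-sided sign-flip permutation test (p = 0.031, the smallest that 6 libraries allow, adjusted p = 0.0375 over 6 pairs). All 4 also passed by coding lengths, where the differences to Krt7 were 2.91 ± 1.01 for Krt8 and 3.27 ± 1.24 for Krt18, with an adjusted p of 0.0469 in the same exact test. As means of the logs, Krt8 and Krt18 together stood 3.55 ± 0.40 log2 units above Krt7 and Krt19, with 3.43 ± 0.55 in set B and 3.66 ± 0.26 in set A (SD, n = 3 each).

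The smallest distance of the acinar pair to Krt7 was in replicate 5. There Krt8 exceeded Krt7 by 2.80 log2 units, against 3.88 to 4.59 in the other 5 libraries, and Krt18 exceeded Krt7 by 2.97, against 4.33 to 5.43. The distance of Krt8 to Krt19 did not follow this pattern, at 2.83 in replicate 5 and 1.92 to 2.79 elsewhere.

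Within the duct pair, Krt19 exceeded Krt7 by 1.60 ± 0.90 log2 units (SD, n = 6), in 5 of 6 libraries. The difference did not pass the exact sign-flip permutation test (p = 0.0625, adjusted p = 0.0625). It was 1.365 ± 1.00 by principal transcript lengths (adjusted exact p = 0.0625) and 0.64 ± 1.19 by coding lengths (adjusted exact p = 0.25). By coding lengths the differences were 0.27, -1.51 and 1.10 in replicates 4, 5 and 6 of set B and 1.44, 1.86 and 0.69 in replicates 1, 2 and 3 of set A, so that replicate 5 alone had more Krt7 than Krt19. Counts gave the same order without any length. Krt7 made up 47.7% of the Krt7 and Krt19 counts in replicate 4 (37.0% to 58.6%, a 95% interval by the exact method of Clopper and Pearson), 79.6% in replicate 5 (66.5% to 89.4%) and 25% in replicate 6 (9.77% to 46.7%), against 20.8%, 17.7% and 38.0% in replicates 1, 2 and 3. The interval of replicate 5, which covers counting error only, lay above those of the other libraries.

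Within the acinar pair, Krt8 was below Krt18 by joined exons, with a difference of -0.59 ± 0.31 log2 units, negative in 6 of 6 libraries (exact sign-flip permutation test, p = 0.031, adjusted p = 0.0375). This call rested on the lengths used. The difference also passed by principal transcript lengths (-0.585) and by whole gene spans (-1.105), each with an adjusted exact p of 0.0375. By coding lengths it was -0.36 ± 0.31 (adjusted exact p = 0.113) and by CPM -0.15 ± 0.31 (adjusted exact p = 0.312). In counts the pair was close to even. Krt8 made up 52.9%, 54.5% and 43.7% of the Krt8 and Krt18 counts in replicates 4, 5 and 6 of set B and 42.9%, 48.5% and 41.3% in replicates 1, 2 and 3 of set A. The 95% intervals, again of counting error only, were 48.7% to 57.1% in replicate 4 and 36.6% to 46.1% in replicate 3.

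**Figure D2:**
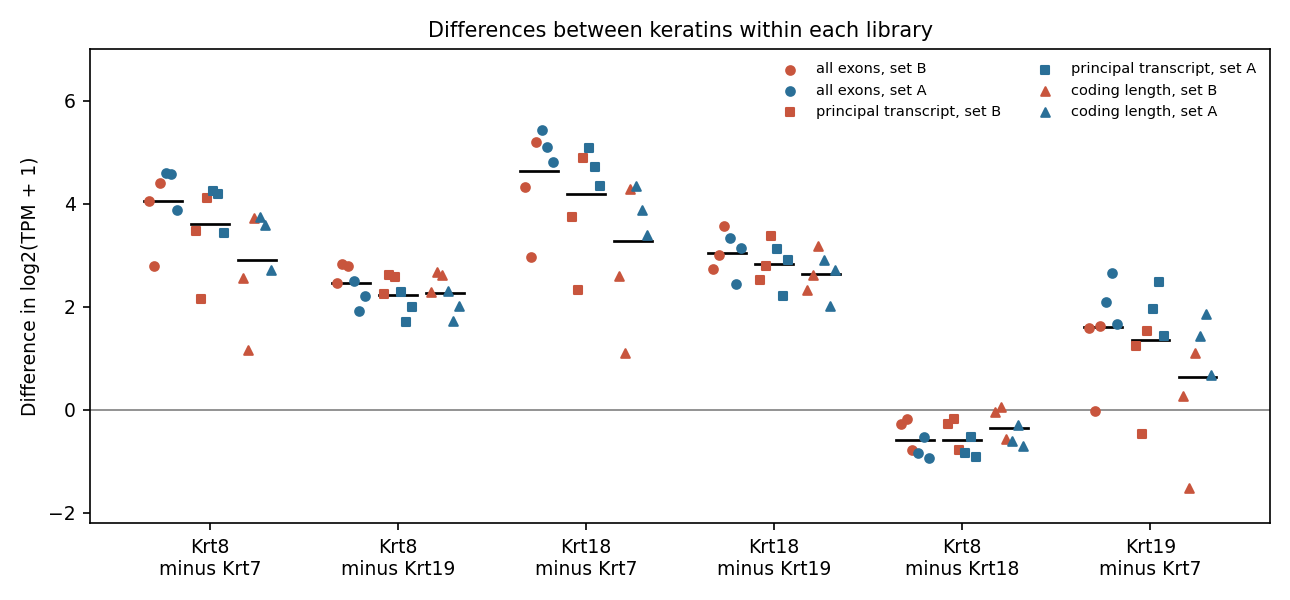
Differences in log2(TPM + 1) between keratins within each of 6 libraries, with 3 choices of gene length, points coloured by set (B before A) and bars for means. The 4 differences of Krt8 and Krt18 to Krt7 and Krt19 are above 0 in every library under each length, while Krt19 minus Krt7 falls below 0 in replicate 5.

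**Figure D3:**
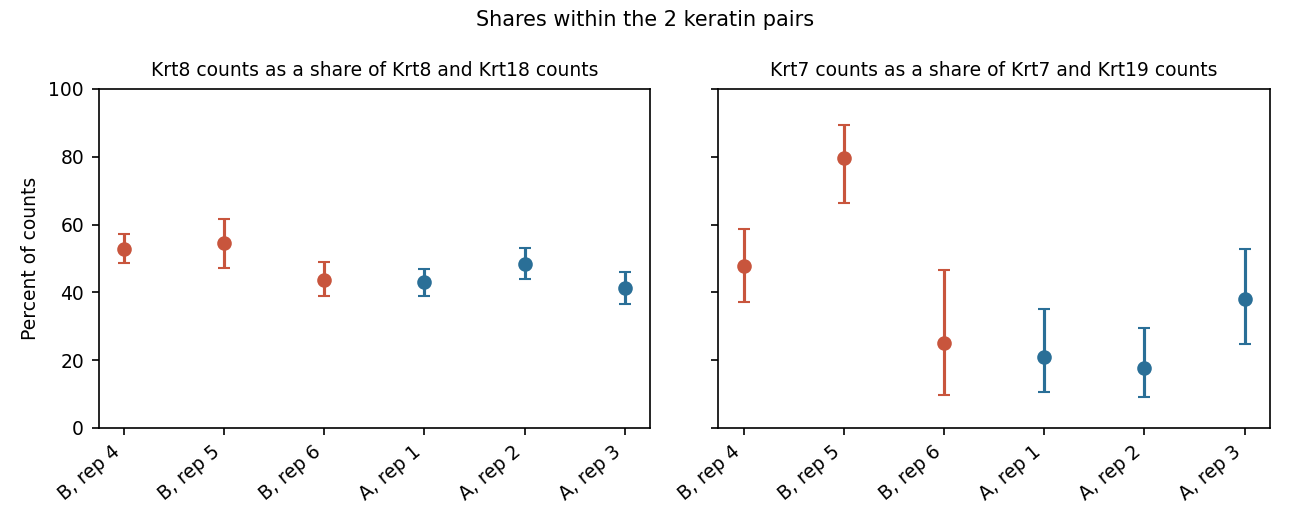
Krt8 as a percent of Krt8 and Krt18 counts (left) and Krt7 as a percent of Krt7 and Krt19 counts (right) per library, set B left of set A, with exact 95% intervals. The acinar pair stays between 41.3% and 54.5%, while the duct pair runs from 17.7% to 79.6%.

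Since filaments need both types, the summed type I keratins (Krt18, Krt19 and Krt20) were set against the summed type II keratins (Krt7 and Krt8). Their ratio by TPM was 1.34, 1.15 and 1.96 in replicates 4, 5 and 6 of set B and 1.97, 1.67 and 2.08 in replicates 1, 2 and 3 of set A, with a mean of 1.69 ± 0.38 (SD, n = 6). By coding lengths it averaged 1.39 ± 0.38, with 1.07, 0.793 and 1.68 in set B and 1.67, 1.44 and 1.69 in set A. In plain counts it averaged 1.2 ± 0.32, with 0.93, 0.695 and 1.45 in set B and 1.44, 1.24 and 1.46 in set A. Replicates 4 and 5 were the lowest on each of these scales. Type II exceeded type I in replicate 5 by coding lengths and in both by counts. These libraries had the most Krt7, which is itself part of the type II sum. Krt8 minus Krt18 was also highest there, at -0.27 and -0.18 log2 units by joined exons, against -0.93 to -0.52 elsewhere.

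The remaining keratin family was nearly silent. Of 50 other keratin genes in the files, Krt23 alone had counts in all 6 libraries and exceeded 3 times background in each. Krt23, a type I keratin, had 15, 17 and 12 counts in replicates 4, 5 and 6 and 16, 17 and 20 counts in replicates 1, 2 and 3, an average of 3.19 ± 1.03 TPM (SD, n = 6), and thus stood between Krt19 and Krt7 by joined exons. Krt10, the type I keratin of differentiated epidermis, averaged 0.540 ± 0.288 TPM from 23 counts, and Krt42 averaged 0.530 TPM from 14 counts, 9 of them in replicate 5. Krt17, known from metaplasia and injured epithelia, had 6 counts in all. The 4 keratin entries with no counts (Krt8-ps, Krt32, Krt80 and Krt6a) have 43.2% to 100% of their exon bases inside the spans of other counted genes, which leaves their absence unsettled. In replicate 5 the other keratins held 120 counts where background alone would give 118, and in the other libraries 32 to 62 counts where it would give fewer, down to 9.57 in replicate 1.

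Krt8 and Krt18 made up 86.4%, 61.1% and 82.5% of the summed keratin TPM by joined exons in replicates 4, 5 and 6 of set B and 89.9%, 85.2% and 83.8% in replicates 1, 2 and 3 of set A. Krt7, Krt19 and Krt20 together made up 7.0% to 8.53% in set B and 5.74% to 9.07% in set A. By coding lengths the 3 made up 14.2%, 15.9% and 9.26% in set B and 8.06%, 12.4% and 10.3% in set A, while the share of Krt8 and Krt18 in replicate 5 was 52.7%. The low share of the acinar pair in replicate 5 went with its 31.6% from the other keratins, which lay at the background level there. Reads shared with near-identical copies were checked by aligning the transcripts. Krt8-ps (98.6% identical to Krt8 over 941 bases) had no counts. All its exon bases lie inside other counted genes, so this absence cannot show whether it shared reads with Krt8. Gm5200 (90.5% identical to Krt18 over 1267 bases) had 2 counts, and how reads with several alignments were counted is not stated.

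**Figure D4:**
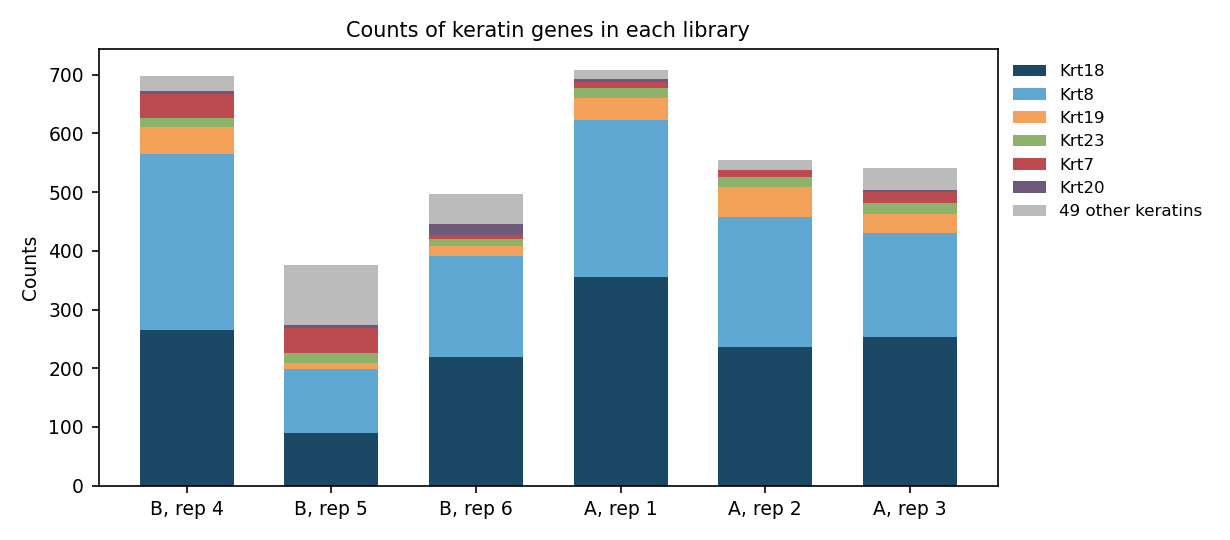
Stacked counts of keratin genes in each library, set B left of set A, with the 49 keratins other than the named ones in grey. Krt18 and Krt8 fill most of every bar, and the grey part is widest in replicate 5, the library with the highest background.

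Between the sets, no keratin passed the test. The quasi-likelihood test of edgeR, with Benjamini-Hochberg adjustment over 8723 genes, called 0.0115% of all genes. Of the keratins, 4 passed the filter on low counts and 0 were called. An unadjusted p under 0.05 was found for 0 of the 4, beside 25.9% of all genes tested. The log2 fold change of set B over set A was 1.07 for Krt7 (SE 0.66, adjusted p = 0.342), -0.84 for Krt19 (SE 0.505, adjusted p = 0.327), -0.69 for Krt18 (SE 0.36, adjusted p = 0.256) and -0.35 for Krt8 (SE 0.36, adjusted p = 0.577). DESeq2 called 6.1% of all genes tested, meaning the 11876 with an adjusted p, and 0 of the 5 keratins. Of the 5, 1 (Krt18) had an unadjusted p under 0.05, beside 10.5% of the 29779 genes with counts. That wider set includes genes given no adjusted p, so its share is no like-for-like measure for the 5 keratins. Krt20 did not pass the edgeR filter, and by DESeq2 its log2 fold change was 1.37 (SE 1.15, adjusted p = 0.505). The direction of Krt8, Krt18 and Krt19 was not fixed by these data, because all 3 were lower in set B by CPM and higher in set B by TPM over protein-coding genes alone, whereas Krt7 and Krt20 had higher means in set B on each scale tried. Of the 5 keratins, 1 (Krt20) had higher TPM in set B with no overlap, as had 31.5% of 11516 protein-coding genes with counts in all 6 libraries, and with background subtracted its sets overlapped. None had lower TPM in set B with no overlap, as had 4.61% of those genes. By CPM, Krt18 was lower in set B with no overlap (39.1, 19.3 and 31.1 against 50.5, 42.5 and 39.7 CPM), as were 10.4% of the genes, and Krt20 higher, as were 18.5%. By TPM over protein-coding genes alone, Krt8 (94.5, 65.2 and 56.6 against 41.9, 49.6 and 37.2) and Krt20 were higher with no overlap, as were 62.6%. The sets also differed in their ribosomal RNA share and acinar marker share, given above, and the part of either in these values was not tested.

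A single library moved the Krt19 comparison. Without replicate 4 the edgeR log2 fold change of Krt19 was -1.73 (SE 0.45, adjusted p = 0.019), in a fit that called 22.6% of all genes. The range over the libraries left out in turn was -1.73 to -0.53.

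Markers of other epithelia in the same libraries were read beside Krt7, Krt19 and Krt20. The 18 duct markers summed to 380, 198 and 157 TPM in replicates 4, 5 and 6 of set B and 231, 256 and 193 TPM in replicates 1, 2 and 3 of set A, with 14 of 18 at a mean of 1 TPM or more and 8 over 3 times background in all libraries. Replicate 4, the second highest in Krt19, had the highest sum, with the secreted phosphoprotein gene Spp1 at 131 TPM. The leading duct markers were Clu, a secreted chaperone, at 128 ± 35.7 TPM, Spp1 at 51.5 ± 40.6 and the mucin gene Muc1 at 28.5 ± 8.33 TPM, whereas the duct factor gene Sox9 had 1.68 ± 0.649 TPM and the chloride channel gene Cftr 0.987 ± 1.16, of whose counts background could account for 70.5% (SD, n = 6).

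Mesothelial cells, which coat the organ and carry the same simple keratins, were scored by 8 genes. Their summed level was 4.64, 17.7 and 6.83 TPM in set B and 0.583, 0.789 and 1.70 TPM in set A, and all 8 had counts in at least 1 library. The leading ones were Nkain4 at 1.50 ± 1.75 TPM, Msln at 1.09 ± 1.11 and Gpm6a at 0.840 ± 0.972, with Upk1b at 0 throughout set A, and none of the 8 exceeded 3 times background in all 6 libraries. Background could account for 37.5% of the Nkain4 counts, 5.61% of the Msln counts, 119% of the Gpm6a counts and 93.2% of the Upk1b counts, so Gpm6a and Upk1b were not measured above it. The sum was highest in replicate 5, which also had the most Krt7 and the highest background. Replicate 6, with the next sum (6.83 TPM), had the lowest Krt7 (0.25 TPM). Islet genes were led by Ins2 at 5.49 to 1324 TPM, Ins1 at 2.51 to 729 and Gcg at 0.198 to 166. Their sum was highest (2227 TPM) in replicate 6, which had the most Krt20. Replicate 4 had the next islet sum (1003 TPM) with 0.766 TPM of Krt20. Replicate 5, with the next Krt20 (0.967 TPM), had an islet sum of 44.6 TPM. The part of ducts, mesothelium, islets or background in the levels of Krt7, Krt19 and Krt20 was not tested.

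The libraries were also searched for the genes whose levels moved most like Krt8 and Krt19, by the SD over 6 libraries of the within-library difference in log2(TPM + 1), among protein-coding genes with a mean of 10 TPM or more. For Krt8 these were the actin-binding thymosin gene Tmsb4x (SD 0.138), the disulfide isomerase gene Pdia3 (0.144), the RNA-binding protein gene Pcbp1 (0.149), the syndecan gene Sdc4 (0.152) and the mitochondrial ribosomal gene Mrps24 (0.163). Of the other keratins its filament partner Krt18 was nearest, 149th of 661 genes with an SD of 0.313. Placed by the same measure, Krt19 came 231st of 662 (0.346) and Krt7 562nd of 662 (0.679). For Krt19 they were Coa3 (0.233) and Ndufb6 (0.264), both linked to mitochondrial respiration, Clu (0.268), Nat8f1 (0.282) and the nucleolar gene Npm1 (0.288). Krt8 was 18th of 662 with 0.346, whereas the duct partner Krt7 came 594th of 663 with 0.898. Krt19 and Krt7 averaged 5.05 and 1.06 TPM, below the 10 TPM asked of the ranked genes. Counting error at low counts widens the SD, so the places of Krt7 cannot tell such error from a difference between the genes. All exon bases of Ndufb6 and 35.5% of those of Nat8f1 lie inside other counted genes. All genes of a library share its depth and ribosomal RNA share, both of which differed between the 6 libraries, so these are descriptions of the libraries.

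Genes of cell junctions and of keratin handling were present at moderate levels. Of 16 genes of junctions and their linkers, 10 had a mean of 1 TPM or more. In all 6 libraries, 4 of the 16 exceeded 3 times background. The 16 genes were led by the desmosomal tetraspan gene Perp at 11.8 ± 2.5 TPM, E-cadherin (Cdh1) at 8.27 ± 1.31 and the plakophilin-related gene Pkp4 at 5.97 ± 1.74. The direct keratin linkers plectin (Plec) and desmoplakin (Dsp) had 1.02 ± 0.266 and 0.963 ± 0.380 TPM (SD, n = 6). Of 21 genes of keratin binding and turnover, 13 reached 1 TPM, led by the co-chaperone gene Bag1 at 19.7 ± 3.34, whose exons all lie inside other counted genes, the 14-3-3 gene Ywhae at 19.6 ± 4.74 and the chaperone gene Hspa8 at 15.2 ± 3.03 TPM. Of 15 kinase and phosphatase genes that act on keratins, 10 reached it, led by the phosphatase gene Ppp1ca at 6.28 ± 1.99 and the kinase genes Prkce at 6.04 ± 3.31 and Akt1 at 5.92 ± 1.24 TPM. Background could account for 34.9% of the Prkce counts. By edgeR, 0 of the 12, 15 and 14 genes of these lists that were tested passed between the sets, and 2, 6 and 1 had an unadjusted p under 0.05, as had 25.9% of all genes tested. Their median log2 fold changes of set B over set A were 0.14, -0.39 and -0.06, beside 0 over all genes tested. DESeq2 called 6.1% of all genes. It called 1 of 13 junction and linker genes higher in set B (Dst) and 1 of 14 kinase and phosphatase genes lower (Ppp1ca). Of 21 turnover genes, it called 3 lower (Rchy1, Sqstm1 and Stub1). Background could account for 79.5% of the Dst counts, which exceeded 3 times background in 0 libraries, and all exon bases of Rchy1 lie inside other counted genes.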

How the data were processed

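RNA of 6 libraries, each of 300 sorted cells, was amplified with 12 cycles in a modified Smart-seq2 protocol, per the labels. Reads were trimmed with Trim Galore 0.6.4, aligned with STAR 2.7.9a to mm10 and counted with featureCounts, per the submitters' processing notes. The authors deposited whole-number counts for each gene symbol, not normalised. Their counting unit was the whole gene with its introns, since the Length column equalled the distance between both ends for all 55253 symbols listed with 1 interval. Annotation release, strand setting and treatment of reads with several alignments are not given in the sources used here.

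Exon lengths were joined from GENCODE M21 (GRCm38, the same assembly as mm10) for 55142 of 55367 symbols, with 99.9976% of the counts. TPM used the joined exons of a gene and all genes, ribosomal RNA included. Principal transcript lengths (APPRIS) and coding lengths were added after the Krt7 length was seen. For the expected background, the 7904 counts on 1765 receptor genes of smell (olfactory and vomeronasal, 13.5 Mb) were taken per Mb and multiplied by each gene's span. A count of 0 allows up to 3 counts, or 0.424 to 0.642 CPM.

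The members and the 14 gene lists were chosen with earlier results of these data known. Named were the members, the 3 highest genes of each list with any that passed between the sets, other keratins with a mean of 0.5 TPM or more, and the 5 genes most like Krt8 and Krt19 among those with 10 TPM or more. Other genes named (Krt17, Plec, Dsp, Sox9, Cftr, Upk1b, Vim, Klf5, genes with no counts, copies of keratins and genes called by DESeq2) were chosen after their values were seen. Pairs were tested by flipping the signs of the 6 differences in all 64 ways (exact, two-sided), with Benjamini-Hochberg adjustment over 6 pairs at 0.05, and sets with edgeR 4.0.16 (TMM, filterByExpr, quasi-likelihood), with DESeq2 1.42.0 as an alternative. Intervals are at 95%. Tests were tested on simulated data. Other software was blastn 2.17.0 (at least 90% identity over 200 bases), matplotlib 3.10.9, scipy 1.17.1, pandas 2.3.3, numpy 2.4.6, Python 3.11.15 and R 4.3.3.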

Additional observations from a re-analysis of the deposited data

Results flagged for a closer look

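Among 55 values checked, 15 had 1 of the 6 libraries far from the others. In these the gap to the nearest library, as a share of the whole range, was above Dixon's critical value. Chance gives such a gap in about 1 of 20 values that are normally distributed. Many TPM here were low or near background, so that rate is not known to hold for them. Of the keratins, Krt20 stood apart in replicate 6 (2.89 TPM against 0.157 to 0.967, gap 0.704 of the range) and Krt42 in replicate 5 (2.38 TPM against 0 to 0.499, 0.79). Replicate 5 was also high for Prkce (0.757), Nkain4 (0.686), Tek (0.693), Adgre1 (0.789) and Csf1r (0.827) and low for Hspa8 (0.632). Replicate 6 was high for Akt1 (0.757), Gpm6a (0.682), Ins1 (0.727) and Gcg (0.968). Replicate 4 was high for Spp1 (0.707), replicate 3 for Col3a1 (0.778) and replicate 2 for Bag1 (0.866). Replicate 5 had the highest background, at 327 counts per Mb.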

How the results depend on the processing

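The acinar and duct keratins kept their order in every setting tried. Without each library in turn, Krt8 minus Krt7 was 3.95 to 4.30 log2 units, Krt8 minus Krt19 2.38 to 2.56, Krt18 minus Krt7 4.48 to 4.97, Krt18 minus Krt19 2.93 to 3.16 and Krt8 minus Krt18 -0.67 to -0.52. None could then pass, because 5 libraries allow no exact p under 0.0625. Krt8 minus Krt18 no longer passed by CPM (-0.15) or coding lengths (-0.36), where the lengths themselves differ. The mean of the acinar pair minus the duct pair was 4.22 with a pseudocount of 0.1, 2.86 by CPM and 2.77 by coding lengths. The type I to type II ratio was 2.38 by gene spans and 1.2 in counts. Over protein-coding nuclear genes alone the mean levels were 57.5 TPM for Krt8, 84.6 for Krt18, 8.97 for Krt19, 2.28 for Krt7 and 2.02 for Krt20, by construction, since all other genes are left out of the total. Between the sets, leaving out libraries moved the log2 fold change from -0.93 to -0.11 for Krt8, from -1.11 to -0.40 for Krt18, from -1.73 to -0.53 for Krt19, which passed without replicate 4, and from 0.64 to 1.59 for Krt7, and the cause was not tested. Across all genes edgeR called 1, with 2258 at an unadjusted p under 0.05. DESeq2 called 725, edgeR with no filter on low counts 993, and leaving out a library gave 2217 (replicate 4), 735 (replicate 5) or 0 (any of the rest). No paired analysis was possible because the replicate numbers in the labels run from 1 to 6 without repeats. Depth limits Krt20 and, in single libraries, Krt7 and Krt19.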

Other observations

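Intermediate filaments other than keratins were low. Of 15 such genes, 4 averaged at least 1 TPM, led by the lamin gene Lmna at 2.69 ± 0.985 TPM, Nes at 1.92 ± 0.491 and Lmnb1 at 1.48 ± 1.10 (SD, n = 6), and Vim, the filament gene of mesenchyme, had 1.31 ± 1.05 TPM. The summed level reached 17.4 TPM in set B and 5.76 TPM in set A. Synm and Nefl had no counts and lie wholly inside other counted genes. By edgeR, 0 of the 4 genes tested passed between the sets (2 had an unadjusted p under 0.05, as had 25.9% of all genes), nor did any of 5 by DESeq2.

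Of 23 transcription factor genes of epithelial expression, 13 averaged at least 1 TPM, led by the AP-1 genes Fos at 36.8 ± 10.9 and Jun at 17.2 ± 3.08 TPM and by Klf6 at 7.53 ± 1.74, while Klf5 had 0.784 ± 0.123 TPM. By edgeR 0 of 17 passed between the sets, and 3 had an unadjusted p under 0.05, beside 25.9% of all genes tested. Of 18 tested, DESeq2 called Trp63 alone, higher in set B, beside 6.1% of all genes. Background could account for 84.5% of the Trp63 counts. Of 18 metaplasia and injury genes, 12 reached 1 TPM, led by the trefoil gene Tff2 at 4035 ± 400 TPM, S100a11 at 16.2 ± 8.52 and Gkn1 at 11.1 ± 16.5. The other lists were led by Sparc (4.36 ± 2.80 TPM), Col3a1 (1.70 ± 2.16) and Dcn (1.42 ± 1.36) for fibroblasts, Tek (1.14 ± 1.44), Pecam1 (0.824 ± 1.05) and Eng (0.770 ± 0.714) for endothelium, and Lyz2 (1.90 ± 1.06), Adgre1 (1.49 ± 2.34) and Csf1r (0.489 ± 0.799) for immune cells. Background could account for 90% of the Tek, 64.7% of the Pecam1, 36.3% of the Eng, 98.5% of the Adgre1 and 42.8% of the Csf1r counts, and Tek, Adgre1 and Csf1r exceeded 3 times background in 0 libraries. Between the sets edgeR called 0 genes of the acinar, duct, mesothelial, islet and metaplasia lists, with an unadjusted p under 0.05 in 9 of 12, 3 of 14, 2 of 2, 4 of 4 and 2 of 12 genes tested, beside 25.9% of all genes. It also called 0 of the fibroblast, endothelial and immune lists, with such a p in 0 of 5, 1 of 2 and 1 of 2. DESeq2, which called 6.1% of all genes, called 8 of 12 acinar markers and 1 of 15 duct markers (Muc1) lower in set B, and 1 of 3 mesothelial (Msln) and 4 of 5 islet markers (Pcsk2, Ins2, Chga and Ins1) higher. Background could account for 94.4% of the Pcsk2 counts and was higher in set B.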
